A study of Mus musculus with 3 samples.

Results

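Nanog, Sox2, Pou5f1, Klf4 and Myc, 5 genes examined here for RNA bound to Mettl3 and to Zfp217, are the core pluripotency and reprogramming factors of mouse embryonic stem cells. Every row of either table that carries 1 of these symbols was taken. There were 12 such transcripts among the 13595 listed in all, with 9 of 9501 in the Mettl3 table, 10 of 8120 in the Zfp217 table and 7 in both. The study asked which RNAs associate with Zfp217 and with Mettl3. It compared RNA immunoprecipitates (RIP) made from nuclear lysate with 10 µg of antibody to Mettl3 or 10 µg of antibody to Zfp217 with their input. All 3 libraries came from untreated CCE, an embryonic stem cell line grown without feeder cells in serum and LIF, and each kind of sample had 1 library. A control RIP with unrelated IgG was not analysed here, so RNA held unspecifically by antibody or beads cannot be told apart from bound RNA. With no replicates, each ratio compares libraries, and no p-value was computed.

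Values are FPKM, the number of fragments scaled to transcript length and library size. The depth recovered from the steps of single reads was 9850000 scaled fragments for the Mettl3 RIP, 7075000 for the Zfp217 RIP, and 6200000 or 6110000 for the input in the Mettl3 or Zfp217 table. Each table held a selection: no RIP value was under 1 FPKM, and no ratio to an input above 0 was under 1.5. All listed transcripts are therefore higher in the RIP, and a transcript missing from a table has no RIP value there. The ratios for the 2 antibodies share their denominator, since both come from a single input library.

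Nanog, Sox2 and Oct4, the protein of Pou5f1, are transcription factors that keep embryonic stem cells undifferentiated, and Oct4 and Sox2 bind many of their sites as a pair. Klf4, a zinc finger factor, and Myc, a driver of growth and proliferation, were used with Oct4 and Sox2 to turn fibroblasts into pluripotent cells. Mettl3 carries the catalytic activity that methylates adenosines in mRNA to m6A, mostly inside a motif built around GGAC and often near the stop codon. Zfp217 is a zinc finger protein that works on chromatin. In mouse embryonic stem cells, mRNAs of Nanog, Sox2, Klf4 and Myc are known to carry m6A, and that of Pou5f1 is a usual example of an mRNA without it.

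The stretches below show the copy of the motif GGACT (capitals) nearest to the end of the coding sequence in 1 listed transcript each of Nanog, Sox2, Klf4 and Myc, the genes whose listed transcripts hold it. They were read from GENCODE M21 on GRCm38.
Nanog-203: ttcggggaGGACTttctgcag
Sox2-201: tgagggctGGACTgcgaactg
Klf4-201: acatgcccGGACTtacaaaat
Myc-201: tctgaaaaGGACTtattgagg
They lie at chr6:122713388-122713408 (plus strand, coding), chr3:34651373-34651393 (plus strand, 3' UTR), chr4:55527794-55527814 (minus strand, 3' UTR) and chr15:61989831-61989851 (plus strand, coding). The Sox2 copy starts 9 bases after the last coding base, the stop codon not counted as coding. The sense strand was searched. Myc-201 held 6 copies of GGACT, where 93.6% of annotated transcripts within 10% of its length held fewer. Klf4-201 held 5, Nanog-203 held 4 and Sox2-201 held 3, with 75.9%, 79.7% and 60.1% of transcripts of like length below them. At least 1 copy was in 90.1%, 94.4%, 87.1% and 87.9% of transcripts of the length of Myc-201, Klf4-201, Nanog-203 and Sox2-201, so holding the motif sets none of them apart. The 3 listed Pou5f1 transcripts held 0 copies of GGACT, while 40.3% (Pou5f1-202), 64.7% (Pou5f1-205) and 54.9% (Pou5f1-206) of transcripts of like length held at least 1. The full-length Pou5f1-201 held 1. The shorter GGAC was in all of these, with 1 copy each in Pou5f1-202 and Pou5f1-206, 2 in Pou5f1-205 and 7 in Pou5f1-201. A match is only a run of letters, and no m6A was measured in these tables.

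Which transcripts were listed differed between the genes. GENCODE M21 annotates 21 transcripts of the 5 genes, and 11 of them were in a table. The remaining listed transcript, a second Sox2 transcript named ENSMUST00000169607, is not in M21. Of the transcripts in the Mettl3 table, 77.8% of those of the 5 genes and 42.4% of all were also in the Zfp217 table. Of those in the Zfp217 table the shares were 70.0% and 49.6%. Because the tables share their input, the overlap is given as a description.

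**Figure D1:**
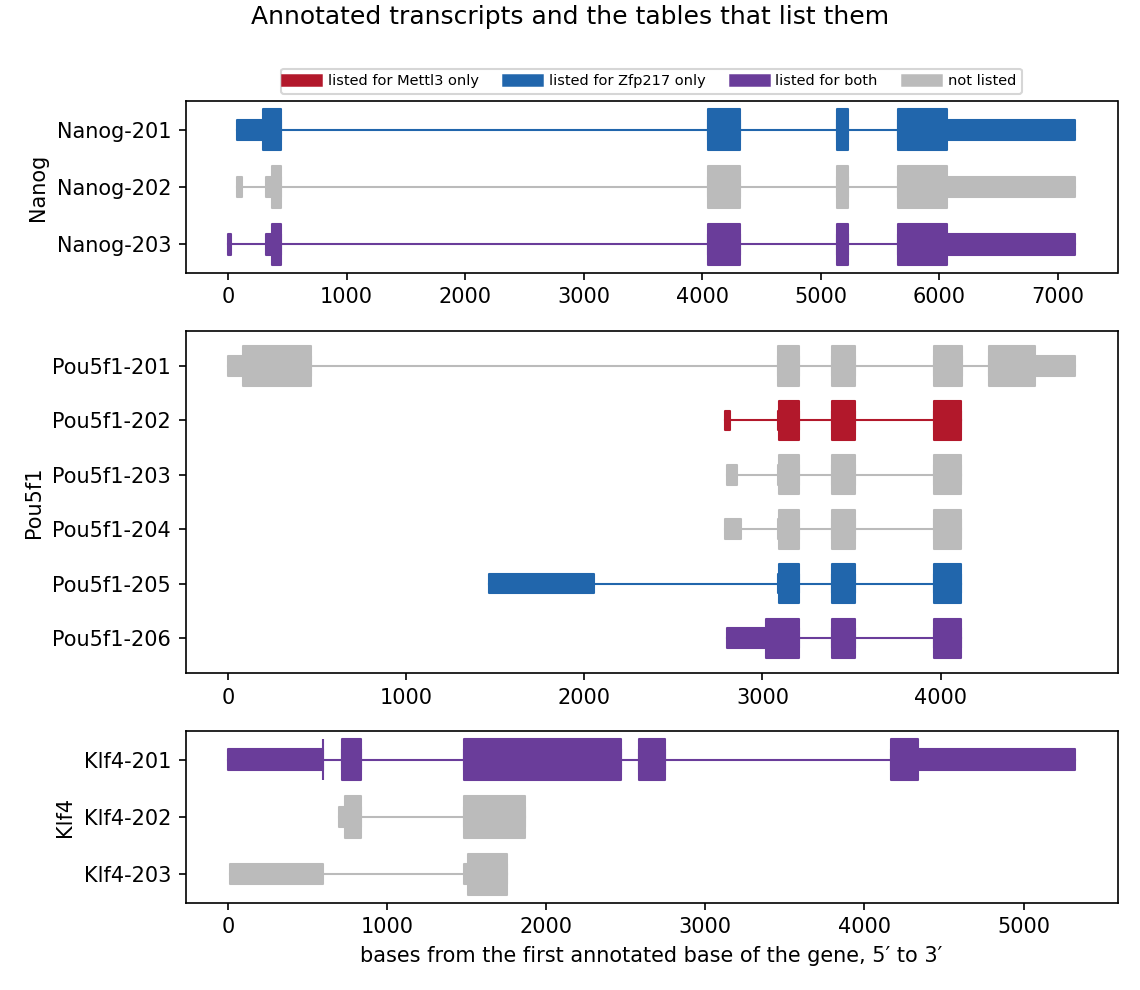
Annotated transcripts of Nanog, Pou5f1 and Klf4 (rows), drawn 5′ to 3′ in bases from the first annotated base of each gene, with thin bars for untranslated and thick bars for coding exons, lines for introns, and colour for the tables that list the transcript. The 3 listed Pou5f1 transcripts lack the first and last exons of Pou5f1-201, which neither table lists, and the Nanog transcripts differ at their 5′ ends.

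The Nanog gene (chromosome 6 from 122707489 to 122714633, plus strand, GRCm38) had 1 listed transcript for Mettl3 and 2 for Zfp217. Nanog-203 (ENSMUST00000112581) had 38.5 FPKM in the Mettl3 RIP, against 14.6 FPKM in the input, a 2.63-fold higher level with a 95% counting interval of 2.22 to 3.13. It had 27.0 FPKM in the Zfp217 RIP, against 14.8 FPKM in the input, 1.83-fold higher (1.52 to 2.21). The values rest on an estimated 703 reads in the Mettl3 RIP, 355 in the Zfp217 RIP and about 168 in the input, and the intervals cover counting error only, not the split of reads between transcripts. Both intervals lie above 1, but no listed ratio is under 1.5, so at these read numbers this follows largely from the selection. Among transcripts with an input of at least 1 FPKM, 74.0% had a lower ratio in the Mettl3 table and 46.2% in the Zfp217 table.

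The other listed Nanog transcript, Nanog-201 (ENSMUST00000012540), had 28.97 FPKM in the Zfp217 RIP, against 18.6 FPKM in the input, 1.56-fold higher (1.33 to 1.84). It was not in the Mettl3 table. With its input scaled to that table (18.4 FPKM), a RIP value of 27.6 FPKM would have met the lowest listed ratio. Nanog-201 begins its coding sequence further upstream than Nanog-203, and has 915 coding bases against 840. It has 29 coding bases that no other Nanog transcript holds (chr6:122707783-122707811, plus strand, start codon in capitals). They are only part of the coding difference between the pair, and are shown as the part found in Nanog-201 alone.
Nanog-201: ATGagtgtgggtcttcctggtccccacag
Of all 50-base words in Nanog-203, 1.39% occur in no other Nanog transcript, against 11.2% for Nanog-201, so the reads that separate them are few. Words shared with transcripts of other genes made up 5.29% of Nanog-203 and 4.76% of Nanog-201.

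Sox2 (chromosome 3 from 34650405 to 34652461, plus strand) had the highest listed level of the 5 genes in all 3 libraries. Sox2-201 (ENSMUST00000099151) had 75.8 FPKM in the Mettl3 RIP, against 42.2 FPKM in the input, 1.79-fold higher (1.62 to 1.99). It had 90.0 FPKM in the Zfp217 RIP, against 42.7 FPKM in the input, 2.11-fold higher (1.90 to 2.35). Of the protein-coding transcripts, 99.4% had a lower RIP value in the Mettl3 table and 99.7% in the Zfp217 table, with 37 and 14 above it. Its ratio was less exceptional, with 30.6% of transcripts of at least 1 FPKM in the input below it for Mettl3 and 66.4% for Zfp217.

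The second Sox2 transcript had 9.91 FPKM in the Mettl3 RIP, against 2.57 FPKM in the input (3.85-fold), and 7.98 FPKM in the Zfp217 RIP, against 2.60 FPKM in the input (3.07-fold). No interval is given, since its length is not known here. Among transcripts of at least 1 FPKM in the input, 91.1% (Mettl3) and 90.8% (Zfp217) had lower ratios. Sox2 is a single-exon gene inside Sox2ot, a long noncoding RNA gene on the same strand. A Sox2ot transcript was listed for Mettl3, at 1.08 FPKM against 0.357 FPKM in the input, and none for Zfp217.

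Pou5f1 (chromosome 17 from 35506018 to 35510772, plus strand) appeared through short transcripts only. The longest annotated transcript of the gene, Pou5f1-201, was in neither table. Of genes with several annotated transcripts and 1 or more listed, the longest was listed for 47.5% of 5454 in the Mettl3 table and 34.8% of 4659 in the Zfp217 table. The first 30 coding bases of Pou5f1-201 (chr17:35506100-35506129) lie in an exon that no other Pou5f1 transcript holds, and those of Pou5f1-206 (chr17:35509037-35509066) in sequence that is an intron of Pou5f1-201. They are shown to mark which product the listed values belong to, with the start codons in capitals and both on the plus strand.
Pou5f1-201: ATGgctggacacctggcttcagacttcgcc
Pou5f1-206: ATGgggcaccctagggtcacagtcccagct

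Pou5f1-206 (ENSMUST00000174782) was the only Pou5f1 transcript in both tables. It had 2.39 FPKM in the Mettl3 RIP, against 1.18 FPKM in the input (2.03-fold, 0.622 to 8.62), and 2.16 FPKM in the Zfp217 RIP, against 1.19 FPKM in the input (1.81-fold, 0.492 to 8.21). Pou5f1-205 (ENSMUST00000173934) had 5.22 FPKM in the Zfp217 RIP, against 2.82 FPKM in the input, 1.86-fold (0.969 to 3.72). These intervals all include 1, and the input held only about 3.96 reads of Pou5f1-206 and 14.6 of Pou5f1-205. Pou5f1-202 (ENSMUST00000172651) was listed for Mettl3 at 8.54 FPKM, about 24.7 reads, against 0 FPKM in the input, and not for Zfp217. Of its 50-base words 6.74% occur in no other Pou5f1 transcript, so a value of 0 need not mean that its sequence had no reads. The antisense gene Gm19553 overlaps Pou5f1, and 19.2% of the words of Pou5f1-202 occur in transcripts of Gm19553 or of Gm5712. Counting by strand is not given in the sources used here, so Pou5f1 values may include reads of these genes.

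Klf4 (chromosome 4 from 55527143 to 55532466, minus strand) had high values in both RIPs and almost none in the input. Klf4-201 (ENSMUST00000107619) had 53.6 FPKM in the Mettl3 RIP, against 0.00253 FPKM in the input, and 51.8 FPKM in the Zfp217 RIP, against 0.00299 FPKM in the input. The RIP values correspond to about 1524 and 1060 reads, and the input values to 0.045 and 0.053 of a read. Both input values come from the same library, and both RIP values are on the same transcript. Fractions of a read come from estimation, not counting, so no fold is given. Of protein-coding transcripts above 0 but under 0.01 FPKM in the input, 369 for Mettl3 and 376 for Zfp217, 0 had a higher RIP value than Klf4-201. With inputs of exactly 0 included there were 1775 and 1884, at a median of 1.90 and 1.89 FPKM in the RIP, and 8 and 4 of them were higher than Klf4-201. The shorter Klf4-202 and Klf4-203 were in neither table. In M21, 66.7% of the 50-base words of Klf4-201 occur in no other Klf4 transcript. The authors' annotation may hold others, and whether the input reads of Klf4 were assigned to another transcript was not tested.

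Myc (chromosome 15 from 61985391 to 61990374, plus strand) had lower levels in both RIPs than Nanog, Sox2 and Klf4. Myc-201 (ENSMUST00000022971) had 6.43 FPKM in the Mettl3 RIP, against 4.17 FPKM in the input, 1.54-fold higher (1.12 to 2.14). It had 7.36 FPKM in the Zfp217 RIP, against 4.22 FPKM in the input, 1.75-fold higher (1.26 to 2.44). Both intervals lie above 1, which again follows largely from the selection. The Mettl3 ratio is close to the limit of the table, with 4.97% of transcripts of at least 1 FPKM in the input below it, against 37.9% for Zfp217. Myc-205, with the same exons and another annotated coding sequence, was in neither table, so reads of the pair cannot be told apart.

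The 3 other Myc transcripts were listed at 0 FPKM in the input. Myc-203, a short transcript of 381 bases, had 3.05 FPKM in the Mettl3 RIP and 2.35 FPKM in the Zfp217 RIP, about 7.20 and 4.01 reads. Myc-204 had 3.36 FPKM in the Mettl3 RIP and was not listed for Zfp217, and Myc-202 had 1.33 FPKM in the Zfp217 RIP and was not listed for Mettl3. An input of 0 was no rarity, at 31.4% of all transcripts in the Mettl3 table and 38.9% in the Zfp217 table.

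**Figure D2:**
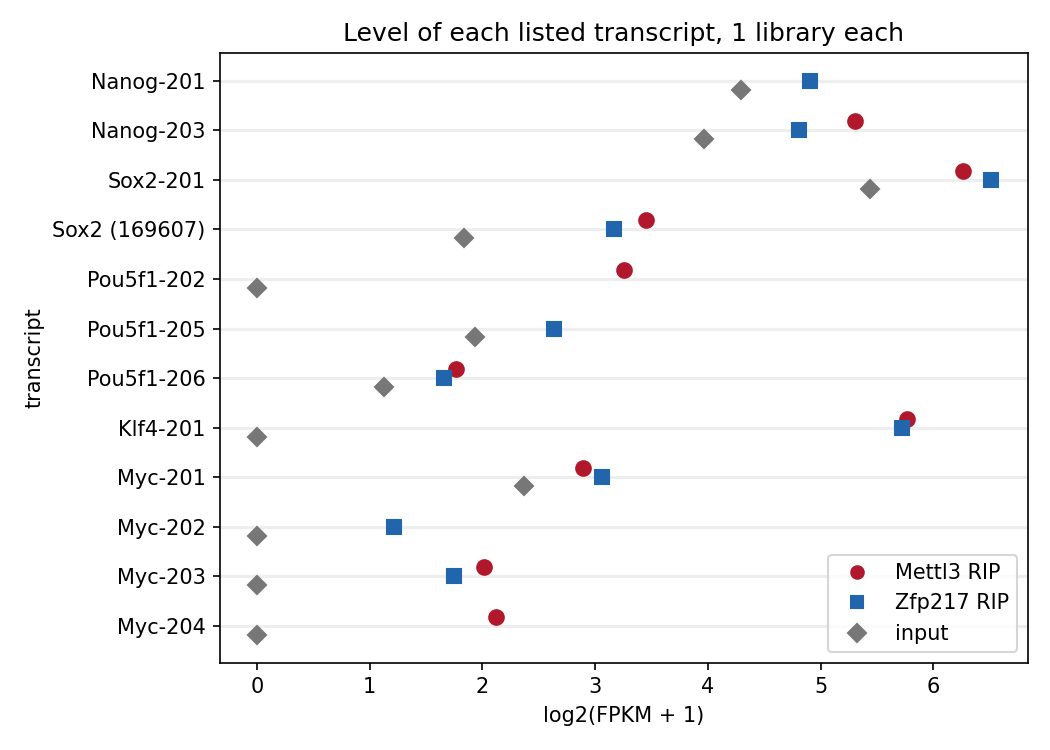
Level of each of the 12 listed transcripts (rows) as log2(FPKM + 1) in the Mettl3 RIP (circles), the Zfp217 RIP (squares) and the input (diamonds, from the Mettl3 table where that lists it), 1 library each. Sox2-201 and Klf4-201 are highest in the RIPs, and Klf4-201, Pou5f1-202 and 3 Myc transcripts sit at or near 0 in the input.

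The number of transcripts past a 2-fold difference was near the background in both tables. At least 2-fold higher on the log2(FPKM + 1) scale were 6 of 9 kept transcripts in the Mettl3 RIP, where 51.1% of all 6667 kept transcripts were. In the Zfp217 RIP 4 of 9 were, where 49.1% of all 5248 were. The count was somewhat above the share of all transcripts for Mettl3 and below it for Zfp217, and with 9 transcripts each it sets the 5 genes apart in neither. An input under 0.01 FPKM lay behind 4 of the 6 and 2 of the 4. Summed per gene over its listed transcripts, 4 of 5 were for Mettl3, beside 57.9% of all symbols, and 3 of 5 for Zfp217, beside 55.9%. Transcripts that a table does not list are missing from its sums. For Mettl3 this leaves out Nanog-201, whose scaled input was 18.4 FPKM, so Nanog is among the 4 by Nanog-203 alone. If Nanog-201 is missing because its ratio was under the limit, its Mettl3 RIP value was under about 27.6 FPKM. Nanog as a whole would then fall short of 2-fold on this scale. Why Nanog-201 is missing is not shown. Taking for each gene the transcript with the highest mean level, 3 of 5 genes for Mettl3 and 2 of 5 for Zfp217 were at least 2-fold higher. The median log2 ratio of these 5 was 1.34 for Mettl3 and 0.71 for Zfp217, against 1.02 and 0.98 over all kept transcripts. Those medians, like the shares of 51.1% and 49.1%, run over every kept transcript and not 1 per gene, so the comparison is rough. As plain ratios with an input of at least 1 FPKM, 3 of 5 transcripts for Mettl3 and 2 of 7 for Zfp217 were at least 2-fold higher, beside 54.3% and 39.3% of all. On the log2(FPKM + 1) scale the same input limit gave 2 of 5 for Mettl3, beside 33.8% of all, and 2 of 7 for Zfp217, beside 20.7%.

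The order of the ratios of the listed transcripts differed between the antibodies. For Mettl3, Nanog-203 (2.63-fold) stood above Sox2-201 (1.79-fold) and Myc-201 (1.54-fold). The interval of Nanog-203 did not overlap that of either, while those of Sox2-201 and Myc-201 overlapped. For Zfp217, Sox2-201 (2.11-fold) came before Nanog-203 (1.83-fold), Myc-201 (1.75-fold) and Nanog-201 (1.56-fold). There each interval overlapped that of the next in order, while those of Sox2-201 and Nanog-201 did not overlap. Nanog-201 has no Mettl3 ratio, so it has a place in the Zfp217 order only. Few reads separate it from Nanog-203, and the intervals do not cover the split of reads between the pair. Intervals that do not overlap may therefore reflect that split, and no place is given for the Nanog gene as a whole. The second Sox2 transcript and the Pou5f1 transcripts, with no interval or a wide one, were left out of this order.

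**Figure D3:**
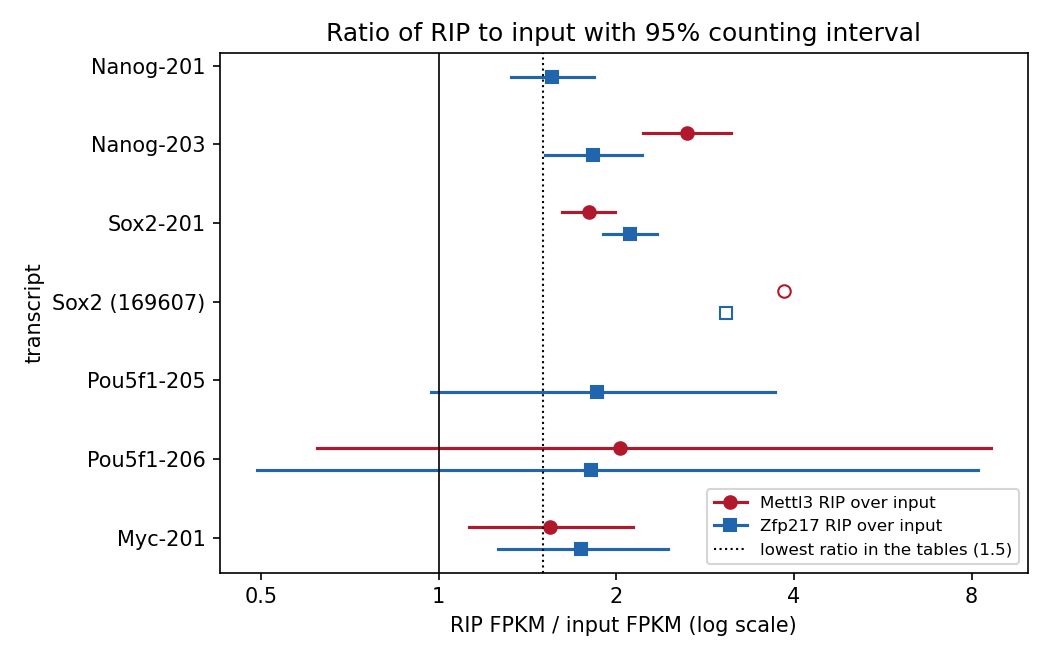
Plain ratio of RIP to input FPKM on a log scale for the transcripts with an input of at least 0.01 FPKM (rows), for the Mettl3 RIP (circles) and the Zfp217 RIP (squares), with lines for 95% counting intervals and open symbols where no interval could be had. Nanog-203 is higher for Mettl3 (2.63 against 1.83 for Zfp217) and Sox2-201 lower (1.79 against 2.11), and the Pou5f1 intervals cross 1.

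Set directly against each other, the RIPs differed for Nanog-203 and Sox2-201 in opposite directions. The input is not in these ratios, but it is in the limits that each transcript passed to be listed. Nanog-201 has no Mettl3 RIP value, and few reads separate it from Nanog-203, so no direction is given for the Nanog gene. Nanog-203 had 38.5 FPKM with Mettl3 and 27.0 FPKM with Zfp217, 1.42-fold higher with Mettl3, and the counting interval ran from 1.25 to 1.62. Sox2-201 had 75.8 FPKM with Mettl3 and 90.0 FPKM with Zfp217, a ratio of 0.842 (0.779 to 0.909). Among the 4026 transcripts in both tables the Mettl3 level was at a median of 1.07 times the Zfp217 level (quartiles 0.789 and 1.44). Both ratios lie between these quartiles, Nanog-203 with 73.8% and Sox2-201 with 29.2% of them below it. The spread between preparations of 1 antibody is unknown.

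Klf4-201 differed little between the RIPs, at 53.6 FPKM for Mettl3 and 51.8 FPKM for Zfp217, a ratio of 1.03 (0.955 to 1.12). Myc-201 had a ratio of 0.874 (0.677 to 1.13), Pou5f1-206 of 1.11 (0.429 to 3.02) and Myc-203 of 1.30 (0.333 to 5.99). All 4 intervals include 1, and only that of Klf4-201 is narrow. The second Sox2 transcript, at 9.91 FPKM for Mettl3 and 7.98 FPKM for Zfp217, had a ratio of 1.24, the opposite direction from Sox2-201.

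**Figure D4:**
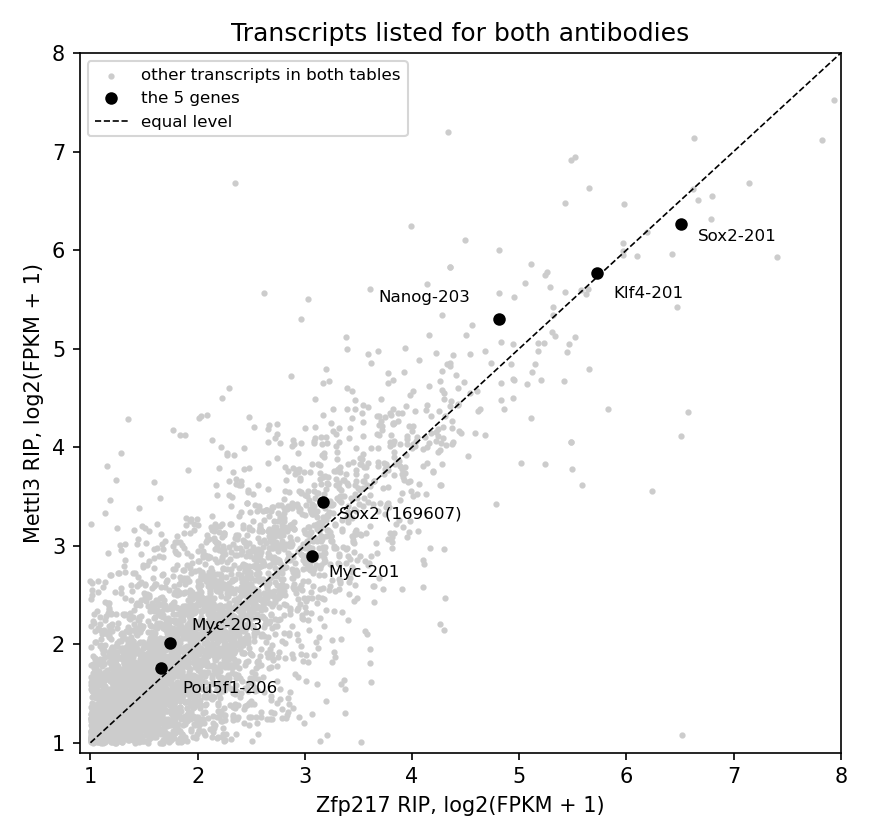
Level in the Mettl3 RIP against level in the Zfp217 RIP, both as log2(FPKM + 1), for the transcripts in both tables (grey) and the 7 of the 5 genes (black), with the dashed line at equal levels; 21 transcripts above 8 on an axis lie outside the plot. Nanog-203 lies above the line and Sox2-201 below it, both inside the cloud of the other transcripts.

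The transcripts with levels most like these across the 3 libraries were found by distance in log2(FPKM + 1), which matches level as well as ratio. For Nanog-203 the nearest were those of Mir1983, Eif1a and Fem1b, at distances of 0.121, 0.257 and 0.261. Eif1a, a translation initiation factor, had 46.2 FPKM in the Mettl3 RIP, 27.1 FPKM in the Zfp217 RIP and 14.4 FPKM in the input. For Sox2-201 they were those of the ribosomal protein gene Rps15a (0.304), the dynein light chain gene Dynll1 (0.331) and the glucose transporter gene Slc2a1 (0.536). Near Myc-201 were Med24, a Mediator subunit, Ptch1, the Hedgehog receptor, and Tanc1, all within 0.0692, and near Pou5f1-206 were Stim1, Oraov1 and Zswim6, all within 0.0652. Nearest to Klf4-201 were AC117806.1 (0.487), SNORA36 (0.725) and CT573034.1 (0.737), all listed at 0 FPKM in the input.

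Related factors were counted with 1 transcript per gene on the log2(FPKM + 1) scale. The shares over all kept transcripts are 51.1% for Mettl3 and 49.1% for Zfp217, or 33.8% and 20.7% with an input of at least 1 FPKM. The medians over all are 1.02 and 0.98. These run over every kept transcript, not the highest 1 per gene, so they are only a rough measure to read the counts against. Shares with 1 transcript per gene were not computed. The lists are short and were chosen with results known, so no list is set apart by its count. Of 24 partners in the pluripotency network, 14 were listed for Mettl3, and 6 of the 13 kept reached a 2-fold difference, at a median log2 ratio of 0.94. For Zfp217 12 were listed, and 7 of the 11 kept reached it, at a median of 1.09. An input of at least 1 FPKM left 2 of 9 for Mettl3 and 4 of 7 for Zfp217. Klf2, a close relative of Klf4, was listed for Zfp217 (84.8 against 29.3 FPKM in the input, 2.89-fold) and not for Mettl3. Zfx, a zinc finger factor of self-renewal, was 3.48-fold higher for Mettl3 (5.34 against 1.54 FPKM in the input). Sall4, a zinc finger partner of Oct4 and Nanog, had the highest ratio of the list in both, leaving out transcripts under 1 FPKM in RIP or input (6.64-fold for Mettl3, 5.56-fold for Zfp217), from under 2 FPKM in the input. Of 13 targets of Oct4 and Sox2, which include Nanog, Sox2 and Pou5f1 themselves, 8 were kept for Mettl3 and 6 were at least 2-fold higher (median 1.46), where 51.1% of all were. For Zfp217 7 were kept and 4 were at least 2-fold higher (median 1.06), where 49.1% of all were. An input of at least 1 FPKM left 2 of 4 targets for Mettl3 and 1 of 4 for Zfp217. The growth factor gene Fgf4 was at the low end for Mettl3, 1.53-fold higher (27.7 against 18.1 FPKM in the input).

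Among 11 partners and relatives of Myc, 5 of 5 kept genes were at least 2-fold higher for Mettl3 (median 1.16). Of all transcripts 51.1% were, at a median of 1.02. For Zfp217 3 of 5 were (median 1.02), beside 49.1% and 0.98. With an input of at least 1 FPKM there were 4 of 4, beside 33.8%, and 3 of 5, beside 20.7%. The counts rest on the highest transcript of each gene. Mga was 7.12-fold higher for Mettl3 in 1 transcript, and 1.54-fold and 1.52-fold in others at the low end of the list. Mycn, the paralogue of Myc, had 15.7 FPKM in the Mettl3 RIP, against 5.48 FPKM in the input (2.86-fold), and 13.2 FPKM in the Zfp217 RIP, against 5.54 FPKM in the input (2.39-fold). Both Mycn ratios are above those of Myc-201 in the same table. Max, the dimer partner of Myc, was 2.31-fold higher for Zfp217. Among 15 Klf and Sp genes 9 of 12 kept were at least 2-fold higher for Mettl3 (median 1.27), beside 51.1% of all, and 7 of 8 for Zfp217 (median 1.47), beside 49.1%. With an input of at least 1 FPKM there were 8 of 11, beside 33.8%, and 4 of 5, beside 20.7%. Sp3, a widely expressed factor of the Sp family, was at 5.13-fold for Mettl3 and 3.19-fold for Zfp217 in its highest transcript. Another Sp3 transcript was at the low end of the list in both, at 2.02-fold and 1.73-fold. Among 9 Sox genes 1 of 4 kept was at least 2-fold higher in each table (medians 0.87 and 0.63). Sox12 was 2.59-fold higher for Mettl3 and 1.54-fold for Zfp217, where Sox2-201 had 1.79-fold and 2.11-fold. Among 7 POU genes, 2 of 2 kept were at least 2-fold higher for Mettl3 (median 1.22) and 0 of 1 for Zfp217 (0.80), and Pou2f1 was 2.46-fold higher for Mettl3.

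The label of the cells was checked against defining markers as far as the selection allows. Of 11 stem cell markers 7 were listed in each table, Nanog, Sox2, Pou5f1, Klf4, Esrrb, Sall4 and Fgf4. They summed to 299.0 FPKM in the Mettl3 RIP, against 80.9 FPKM in the input, and to 275.1 FPKM in the Zfp217 RIP, against 102.7 FPKM. Both input sums are of 1 library and cover different transcripts, so the sums cannot be compared between antibodies. Nanog-201, at 18.6 FPKM in the input, is in the Zfp217 sums only. Klf4-201, with almost no input, makes up 53.6 and 51.8 FPKM of the RIP sums. Nanog, Sox2, Pou5f1 and Klf4 are themselves among the 5 genes examined here, so only Esrrb, Sall4 and Fgf4 are separate from them. Dppa5a, Tdgf1, Utf1 and Zfp42 were not listed. No listed transcript belonged to the 7 markers of primitive endoderm, the 4 of mesoderm, the 4 of neural cells or the 4 of trophoblast, and of 6 fibroblast markers only Vim was listed. Vim summed to 18.2 FPKM in the Mettl3 RIP, against 0.0217 FPKM in the input, and to 22.4 FPKM in the Zfp217 RIP, against 1.51 FPKM in the input. Since a marker under 1.5 times its input is not shown, absence from the tables does not measure absence from the cells.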

How the data were processed

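RNA was measured in 3 libraries of CCE cells, a Mettl3 RIP, a Zfp217 RIP and an input. The authors deposited 1 table per antibody. Its 2 value columns were read as FPKM, although no header names the unit, because Cufflinks and Cuffdiff are named in the submitters' processing notes. Those notes also name CASAVA 1.4, Bowtie2, TopHat2 2.0.8 and the build mm9, with no roles or settings. The authors' log2 fold changes could be recomputed from the deposited values to within 0.00466.

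Ratios were computed within each table with Python 3.11.15, pandas 2.3.3, numpy 2.4.6 and scipy 1.17.1, plainly or as log2((RIP + 1)/(input + 1)). Transcripts with a mean of RIP and input of at least 1 FPKM were kept for counts. With 1 library per group no test was run. Transcript names, structures and lengths came from GENCODE M21 (GRCm38), which held 88.3% of transcripts listed for Mettl3 and 88.8% of those for Zfp217.

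Depth was taken as the fragment number and length offset that made FPKM whole multiples of 1 read (within 0.03) in single-transcript genes of 240 to 2000 bases with under 8.5 reads. This held for 80.9% of 152 transcripts in the Mettl3 RIP, 82.2% of 191 in the Zfp217 RIP, and 84.2% of 177 and 84.2% of 139 in the input of each table. Intervals are exact 95% Clopper-Pearson intervals of the ratio, given the sum of the estimated reads. They cover counting error only, not the split of reads between transcripts or the spread between preparations.

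The named genes were all listed transcripts of the 5 genes, up to 2 genes at each end of 6 gene lists per table, and the 3 nearest transcripts per gene over the 3 libraries. Of the genes at the ends of the lists, only some are given values. Members, lists and rules were chosen with earlier results of these data known. The alternatives were another pseudocount, plain ratios, no filter, an input minimum, sums per gene and other scalings.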

Additional observations from a re-analysis of the deposited data

How the results depend on the processing

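The count of transcripts at least 2-fold higher was 6 of 9 in the Mettl3 RIP and 4 of 9 in the Zfp217 RIP. Of all kept transcripts 51.1% and 49.1% were. With only inputs of at least 1 FPKM the count was 2 of 5 for Mettl3, beside 33.8% of all, and 2 of 7 for Zfp217, beside 20.7%. Transcripts at or near 0 in the input drop out there. For Mettl3 it was 6 of 9 with a pseudocount of 0.1 FPKM or no filter, and 4 of 6 with plain ratios and inputs above 0. For Zfp217 it was 4 of 9 with that pseudocount, 5 of 10 with no filter and 3 of 8 with plain ratios. Shares over all transcripts were not computed for these settings. Sums per gene gave 4 of 5 genes for Mettl3, beside 57.9% of all symbols, and 3 of 5 for Zfp217, beside 55.9%. Of 47 recomputed log2 ratios of RIP over input, the 28 with a counting interval lay inside it. Of those without one, whose input was at or near 0 FPKM or whose length is not known here, 17 changed in value and 2 did not. The 2 were of Myc-203, listed at 0 FPKM in the input for both antibodies, and could not change. The direction was fixed by the selection, since the tables list only ratios of at least 1.5 and these alternatives could not turn a sign. All alternatives reuse the same reads, so staying inside a counting interval shows no stability between preparations. For Klf4-201 the Mettl3 log2 ratio was 5.77 with a pseudocount of 1 FPKM and 9.03 with 0.1 FPKM, so its size is set by the pseudocount. Between the RIPs, 18 of 21 recomputed log2 ratios stayed inside the interval, and the 3 others were of the second Sox2 transcript, which had none. There too the same reads were reused. Klf4-201 had a log2 ratio of Mettl3 over Zfp217 RIP of 0.046, and of -0.027 with each RIP over its median. No paired analysis was possible because each group had 1 library.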
